A study of Taeniopygia guttata with 48 samples.

Results

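The hypothalamus was compared with the nucleus taenia of the amygdala in adult male zebra finches (Taeniopygia guttata), using all 12 male RNA libraries among the 24 RNA libraries of a series of 48 samples. The other 24 samples are methylation libraries, which were not analysed here. The male libraries were chosen by the sex and brain region given in their labels, and formed 4 groups of 3: hypothalamus of males from testosterone-injected eggs, hypothalamus of males from control eggs, nucleus taenia of males from testosterone-injected eggs and nucleus taenia of males from control eggs. Testosterone eggs had received 500 pg of the hormone in 5 µl of peanut oil on the morning of laying, and control eggs the same volume of oil without hormone. All birds were sampled as adults. Frozen brains were cut in 50 µm sections down to each region, which was then taken with a 1 mm biopsy punch. Expression was measured by strand-specific mRNA sequencing and deposited as FPKM (fragments scaled to transcript length and to the number of mapped fragments). Of 17475 genes in the table, 13537 had a mean of at least 1 FPKM over the 12 male libraries and were tested.

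The hypothalamus lies at the base of the diencephalon, where neurosecretory and peptidergic neurons govern the pituitary, feeding, water balance and reproduction. The nucleus taenia lies in the avian telencephalon and is regarded as a counterpart of part of the mammalian medial amygdala, with roles in sexual and social behaviour. Both regions are known to hold cells with receptors for sex steroids. The table lists genes by Ensembl identifier without symbols, and the gene table at hand matched 0 of them, so genes appear by identifier and no regional marker could be used to check the punches.

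General measures of the male libraries overlapped between the 2 regions. In hypothalamus libraries 14410 to 14938 genes were above 0, against 14386 to 15105 in nucleus taenia libraries. Median expression was 10.3 to 11.9 FPKM in hypothalamus and 10.7 to 11.9 FPKM in nucleus taenia, and the 10 most abundant genes held 5.10% to 9.32% of the total FPKM in hypothalamus and 5.68% to 12.1% in nucleus taenia. None of 5 such measures separated the regions in exact two-sided permutation tests with region labels exchanged within treatment (unadjusted p from 0.575 to 0.96, adjusted p from 0.931 to 0.96, 400 relabellings, smallest possible p 0.005). Absolute depth is unknown, and a rough relative depth read from the steps of low values ran from 0.63 to 1.15 times the median library in hypothalamus and from 0.58 to 1.19 in nucleus taenia. Testosterone nucleus taenia replicate 2 stood apart: across the tested genes its Pearson r with the other 11 male libraries averaged 0.848, against 0.891 to 0.916 for the rest. Control hypothalamus replicate 1 and control nucleus taenia replicate 1 were the most similar pair of all, at r = 0.972, where the next of the 66 pairs reached 0.952.

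The design asks which genes are expressed at different levels in the 2 regions. No gene passed in the male comparison: limma, fitted to log2(FPKM + 1) with treatment as a stratum, called 0 of 13537 genes (0.0%) at a Benjamini-Hochberg adjusted p of 0.05. The smallest adjusted p was 0.294. At an unadjusted p under 0.05 there were 300 genes, or 2.22%, of which 144 were higher in hypothalamus (1.06%) and 156 lower (1.15%). With no regional difference and libraries that vary independently, a share of about 0.05 of the genes would be expected under that threshold. The 2.22% is below it, but most same-numbered libraries deviated together (below), and this fit leaves their pairing out. With the same-numbered pairs as a replicate block the share was 5.17%. The same expected share, under the same condition, applies to the other counts at an unadjusted p given below. The median size of the regional difference over all tested genes was 0.15 on the log2 scale, and 95% of genes differed by less than 0.68. In FPKM from tissue punches, fewer cells of a type and less RNA per cell cannot be told apart.

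The precision of the comparison was uneven across genes. In the fit without the replicate block, the 95% interval of the log2 difference reached 0.56 to either side for the median gene, which is 1.48-fold. Intervals that stayed inside 2-fold in both directions were found for 71.6% of genes, and inside 4-fold for 95.2%. Folds on the log2(FPKM + 1) scale are smaller than the true ones where a gene is weakly expressed. Residual spread was widest in weakly expressed genes, with a median residual SD of 0.59 among 2562 genes of 1 to 5 FPKM and 0.39 among 850 genes of at least 200 FPKM. The share of genes at an unadjusted p under 0.05 was 2.19% in the first of these classes and 1.88% in the second.

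**Figure D1:**
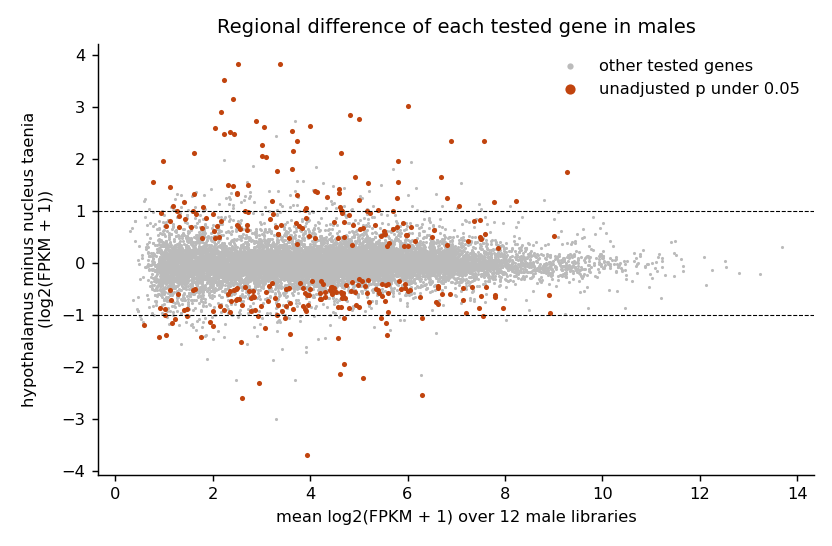
Regional difference of each of the 13537 tested genes in males (vertical axis, hypothalamus minus nucleus taenia, log2(FPKM + 1)) against its mean level over the 12 male libraries (horizontal axis). Orange points are the 300 genes at an unadjusted p under 0.05, and dashed lines mark 2-fold. Beyond 4-fold lie 27 genes towards the hypothalamus and 10 towards the nucleus taenia.

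The unadjusted count moved with single libraries, while the adjusted count was 0 whichever 1 of the 12 was left out. It was 160 genes (1.18%) without control hypothalamus replicate 2, 138 (1.02%) without control hypothalamus replicate 3 and 169 (1.25%) without testosterone hypothalamus replicate 3. The count was 678 (5.02%) without control hypothalamus replicate 1, 632 (4.68%) without testosterone nucleus taenia replicate 1 and 623 (4.6%) without testosterone nucleus taenia replicate 3. Without testosterone nucleus taenia replicate 2, the library of lowest r, it was 307 (2.29%).

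ENSTGUG00000003864 had the smallest p of all genes. It stood at 107, 60.0 and 67.2 FPKM in testosterone hypothalamus replicates 1 to 3 and at 73.2, 84.8 and 63.1 FPKM in control hypothalamus replicates 1 to 3. In nucleus taenia it was at 4.54, 7.15 and 15.7 FPKM in testosterone replicates 1 to 3 and at 3.74, 24.6 and 13.9 FPKM in control replicates 1 to 3. The regions did not overlap, and the mean was 75.9 ± 17.7 FPKM in hypothalamus and 11.6 ± 8.04 FPKM in nucleus taenia (SD, n = 6 each), a ratio of 6.54. The log2 difference was 2.84 (SE 0.40), with a limma adjusted p of 0.294, so the gene did not pass. Its difference was 3.07 in testosterone males and 2.61 in control males on the log2 scale, each with SE 0.57 (limma adjusted p = 0.907 and 1).

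ENSTGUG00000010289 was the next gene in the direction of higher hypothalamic expression. Its levels in hypothalamus were 41.1, 19.9 and 36.4 FPKM in testosterone replicates 1 to 3 and 13.5, 32.1 and 32.3 FPKM in control replicates 1 to 3, against 7.03, 5.80 and 10.0 FPKM in testosterone nucleus taenia and 13.3, 12.1 and 15.7 FPKM in control nucleus taenia. The regions overlapped only in that control hypothalamus replicate 1 lay below control nucleus taenia replicate 3. The log2 difference was 1.36 (SE 0.26, limma adjusted p = 1.00).

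In the opposite direction, ENSTGUG00000015212 was at 5.91, 5.32 and 7.71 FPKM in testosterone hypothalamus and at 5.91, 8.94 and 7.23 FPKM in control hypothalamus, against 9.52, 13.2 and 11.6 FPKM in testosterone nucleus taenia and 10.5, 19.8 and 21.1 FPKM in control nucleus taenia. The regions did not overlap, and the log2 difference was −0.92 (SE 0.21, limma adjusted p = 1.00). ENSTGUG00000015318 was at 1.59, 0 and 0 FPKM in testosterone hypothalamus and at 15.9, 2.56 and 10.1 FPKM in control hypothalamus, against 30.8, 17.0 and 5.53 FPKM in testosterone nucleus taenia and 37.2, 8.23 and 18.1 FPKM in control nucleus taenia. Its regions overlapped, and the log2 difference was −2.31 (SE 0.54, limma adjusted p = 1.00). Within the treatments the log2 difference of ENSTGUG00000015318 was −3.50 in testosterone males and −1.11 in control males, and the difference between these had an unadjusted limma p of 0.0478 (adjusted p = 0.873). For ENSTGUG00000010289 the values were 1.93 in testosterone males and 0.79 in control males (unadjusted limma p of the difference 0.0542, adjusted p = 0.873). ENSTGUG00000015212 had −0.77 in testosterone males and −1.08 in control males (adjusted limma p of the difference 0.912). In all 6 same-numbered pairs ENSTGUG00000015212 and ENSTGUG00000015318 were lower in hypothalamus, and ENSTGUG00000003864 and ENSTGUG00000010289 were higher there. These genes were chosen by p in the same libraries, and where regions do not overlap, agreement in every pair follows. For ENSTGUG00000010289 the control pair numbered 1 was nearly level, at 13.5 FPKM in hypothalamus and 13.3 FPKM in nucleus taenia.

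**Figure D2:**
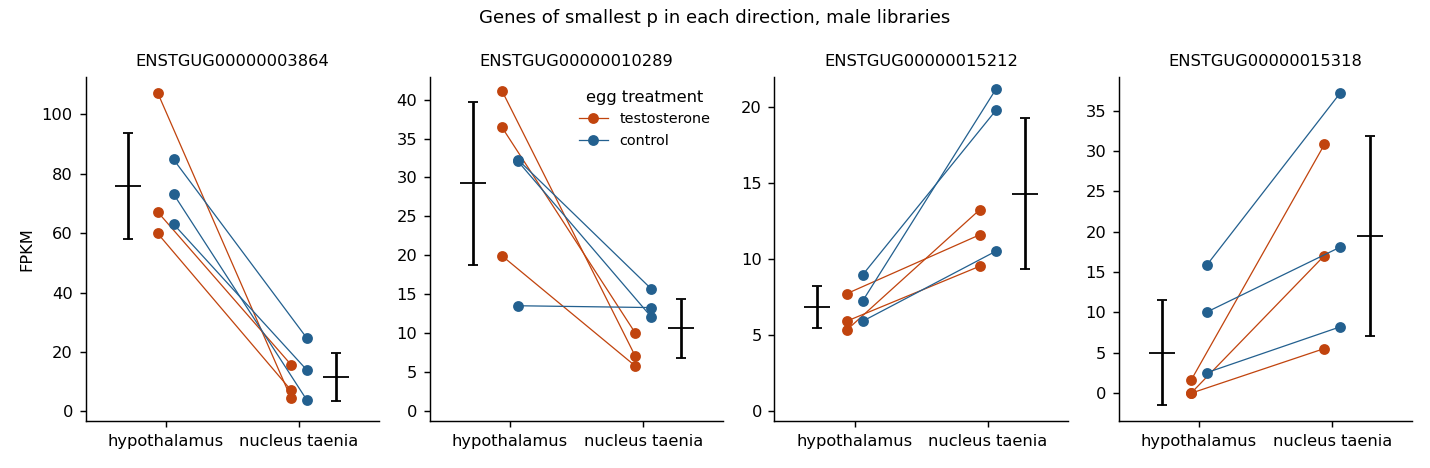
Level in FPKM (vertical axis, linear) of the 2 genes of smallest p in each direction, in hypothalamus and nucleus taenia of the 12 male libraries. Points are libraries coloured by egg treatment, thin lines join same-numbered libraries of a treatment, and black marks show the mean and SD of the 6 libraries of a region. For ENSTGUG00000003864 the lowest hypothalamus value, 60.0 FPKM, lies above the highest nucleus taenia value, 24.6 FPKM.

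Complete separation of the regions was rare. In 3 genes all 6 hypothalamus libraries lay above all 6 nucleus taenia libraries (0.0222% of those tested), and in 5 genes they lay below (0.0369%). Together these 8 genes, 0.0591% of those tested, were each above 0 in every male library. Their log2 differences ran from −1.02 to 2.84, and 7 of the 8 had an unadjusted p under 0.05. They were chosen by their separation in the same libraries, so small p values largely follow from the choice. Differences between same-numbered libraries had the same sign in all 6 pairs for 385 genes (2.84%), 209 of them higher in hypothalamus (1.54%) and 176 lower (1.30%). With 6 pairs only 64 patterns of sign exist, and each direction of full agreement is 1 of the 64. Shares of about that size therefore arise without any regional difference. Neither the 2.84% nor the share of complete separation was tested.

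On the log2(FPKM + 1) scale 248 genes differed over 2-fold between the regions (1.83%), 153 of them higher in hypothalamus (1.13%) and 95 lower (0.702%). Over 4-fold, 27 genes were higher (0.199%) and 10 lower (0.0739%). Of these 37 genes, 1 had regions that did not overlap. Values listed at 0 were common among genes with large differences: 102 of the 248, or 41.1%, were listed at 0 in at least 1 of the 12 libraries, against 890 of all tested genes, or 6.57%. Among genes above 0 in every male library, 1.15% were over 2-fold, against 11.5% of the genes with a 0. A listed 0 may stand for a failed estimate as well as for absent transcript, which these values cannot tell apart.

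Most of the 27 genes over 4-fold higher in hypothalamus were high in only part of the hypothalamus libraries. ENSTGUG00000003864 was an exception, with a lowest value of 60.0 FPKM over all 6. The median level of the 27 genes was 70.8 FPKM in testosterone hypothalamus replicate 3, 84.8 FPKM in control hypothalamus replicate 2 and 103 FPKM in control hypothalamus replicate 3. In the other hypothalamus libraries it was 5.28 and 12.7 FPKM, in testosterone replicates 1 and 2, and 6.07 FPKM in control replicate 1. In the 6 nucleus taenia libraries it ran from 1.82 to 4.54 FPKM. For 22 of the 27 genes those first 3 libraries were the highest of all 12, and they were the top 3 of the 6 hypothalamus libraries in 86 of the 126 genes that were 2-fold to 4-fold higher there. They were the top 3 of the 6 hypothalamus libraries in 8.93% of all tested genes. The share of all tested genes in which they were the highest of all 12 was not taken. The genes were chosen by this difference and the libraries after their values were seen, so the counts describe the pattern and carry no test.

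The 10 genes over 4-fold lower in hypothalamus were also uneven across its libraries. Their median was 0 to 43.9 FPKM over the hypothalamus libraries and 31.4 to 92.4 FPKM over the nucleus taenia libraries, and 8 of the 10 were listed at 0 in at least 1 male library. The highest hypothalamus median was in control replicate 1 and the lowest in testosterone replicate 2, where 7 of the 10 genes were listed at 0.

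**Figure D3:**
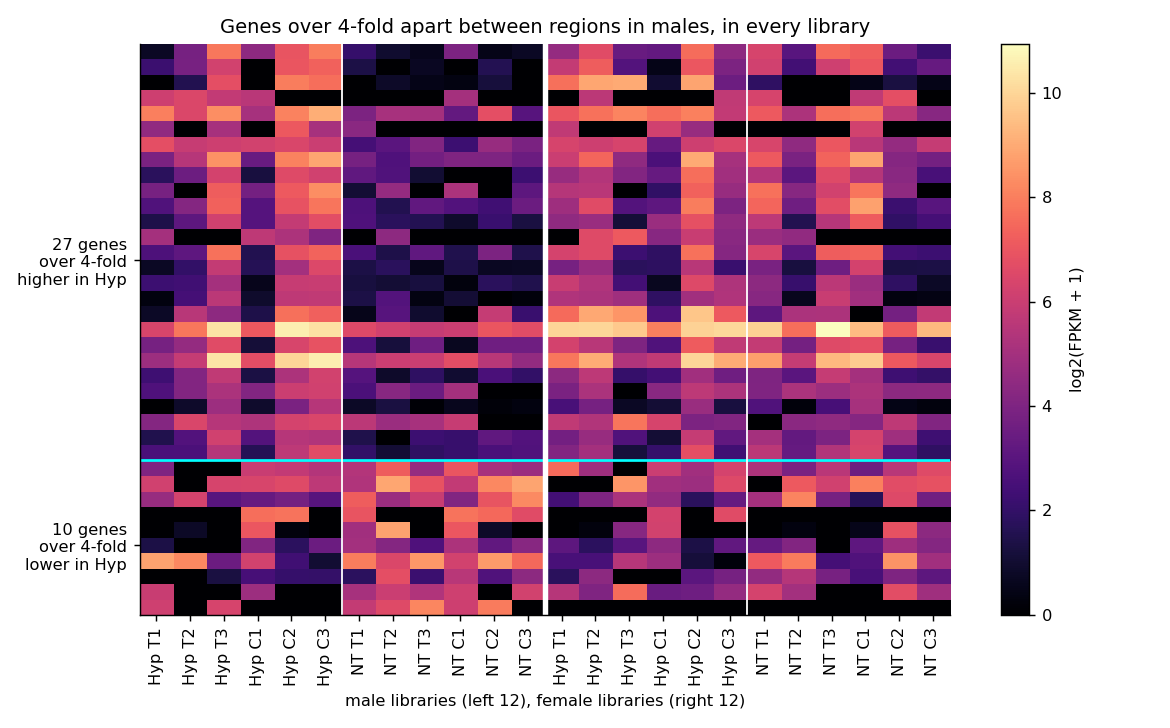
Level (colour, log2(FPKM + 1)) of the 27 genes over 4-fold higher and the 10 genes over 4-fold lower in male hypothalamus (rows, by size of the difference), in the 12 male libraries and the 12 female libraries (columns; Hyp hypothalamus, NT nucleus taenia, T testosterone, C control, with the replicate number). In males most of the 27 genes are bright in Hyp T3, Hyp C2 and Hyp C3, and in females they are bright in libraries of both regions.

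Among the 27, ENSTGUG00000010980 had the lowest peak level over the 12 nucleus taenia libraries of both sexes. It was chosen by that level after its values were seen, so its low nucleus taenia levels follow from the choice. It reached 107 FPKM in testosterone hypothalamus replicate 3 and 253 and 196 FPKM in control hypothalamus replicates 2 and 3, but 0 to 1.96 FPKM in the other male hypothalamus libraries and 0 to 1.31 FPKM in the male nucleus taenia. In females it was at 203, 484 and 514 FPKM in testosterone hypothalamus replicates 1 to 3 and at 1.02, 464 and 10.6 FPKM in control hypothalamus replicates 1 to 3, against 0 to 2.71 FPKM in the 6 nucleus taenia libraries. Over 100 FPKM were thus found in 7 of the 12 hypothalamus libraries of both sexes. The 0 of 12 nucleus taenia libraries over that level follow from the choice of the gene and carry no test. Its limma adjusted p was 1.00 in males (log2 difference 3.51, SE 1.44) and 0.384 in females (log2 difference 5.80).

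Overall profiles of same-region libraries were about as close as those of libraries from different regions. The mean Pearson r across the tested genes was 0.900 for pairs of male libraries of the same region and 0.903 for pairs of different regions, a difference of −0.0039 (exact two-sided permutation test within treatment, p = 0.66). With the same-numbered pairs left out, the mean for different regions was 0.898 and the difference turned to 0.0015 (exact permutation of regions within a number, p = 0.75). For 7 of the 12 male libraries the most similar library was one of the other region, and for 3 it was the same-numbered library of their own treatment. Of the total variation over the tested genes, region took 6.94% with 1 degree of freedom, treatment 9.15% and their interaction 9.02%. Differences between replicate numbers within a treatment took 51.5% with 4 degrees of freedom, or 12.9% for each, against 5.85% for each of the 4 residual degrees of freedom.

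**Figure D4:**
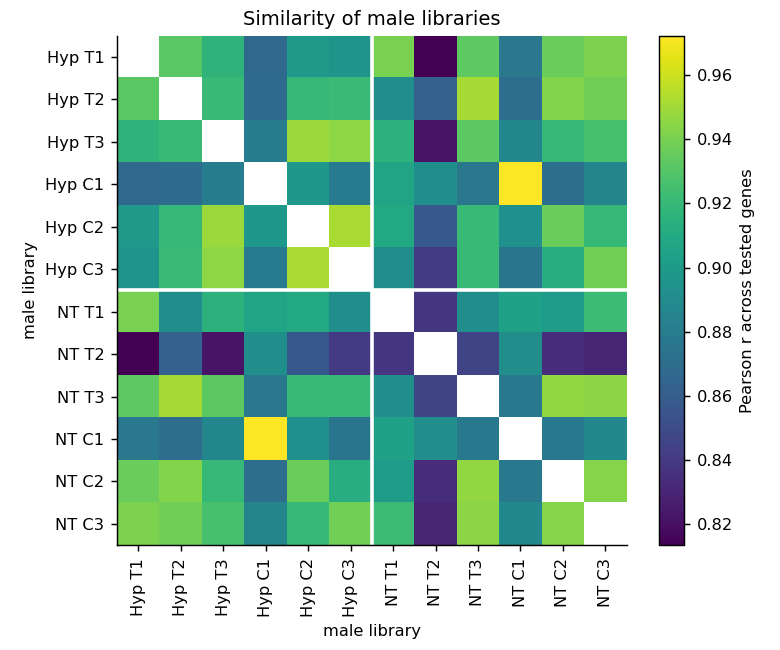
Pearson r across the 13537 tested genes (colour) for each pair of the 12 male libraries (Hyp hypothalamus, NT nucleus taenia, T testosterone, C control, with the replicate number). White lines part the regions, the diagonal is left blank, the brightest cell is the pair Hyp C1 and NT C1 at 0.972, and the darkest cells are those of NT T2.

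Same-numbered libraries of the control males deviated together. The deviations of control hypothalamus and control nucleus taenia libraries from their group means correlated at r = 0.67, 0.53 and 0.53 across genes for numbers 1 to 3, and in testosterone males at r = 0.38, 0.30 and −0.06. All 3 control pairs thus exceeded the threshold of 0.1 set for pairing, as did testosterone pairs 1 and 2 but not pair 3. Among pairs of unlike number, control hypothalamus 3 with nucleus taenia 2 also exceeded it, at r = 0.15. So did testosterone hypothalamus 2 with nucleus taenia 3, at r = 0.13, and the other unlike pairs did not. Pairs of a treatment share their group means and are not independent. The labels do not say whether a number marks a bird. With the 6 same-numbered pairs as a replicate block limma called 1 gene in the male comparison (0.00739%). Of the tested genes, 700 reached an unadjusted p under 0.05 (5.17%). With 1 regional difference common to both treatments, a form chosen after seeing the data, the paired limma fit called 0 genes, and 612 reached an unadjusted p under 0.05 (4.52%).

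The gene called with the block was ENSTGUG00000003392, which lies outside the naming rule. It was at 67.1, 87.5 and 55.0 FPKM in testosterone hypothalamus replicates 1 to 3 and at 47.3, 0 and 0 FPKM in control hypothalamus, against 0 in all 3 testosterone nucleus taenia libraries and 32.0, 0 and 0 FPKM in control nucleus taenia. Its limma adjusted p was 0.00752 with the block and 1.00 without it, and in the females it was listed at 0 in 4 of the 6 hypothalamus libraries and 3 of the 6 nucleus taenia libraries. For the regional difference in testosterone males, the block fit to all 12 male libraries also gave this 1 gene. In that comparison 1411 genes reached an unadjusted p under 0.05 (10.4%). For the difference between the treatments in the regional difference, the block fit again gave this gene alone (log2 difference 5.94, limma adjusted p = 0.0111). ENSTGUG00000003864 did not pass with the block (limma adjusted p = 0.608).

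The regional difference was also taken within each treatment, with the spread shared over the 12 male libraries. In testosterone males limma called 0 of 13537 genes (0.0%), and 483 reached an unadjusted p under 0.05 (3.57%), 148 of them higher in hypothalamus and 335 lower. That count was 187 (1.39%) without testosterone nucleus taenia replicate 2 and 302 (2.23%) without testosterone hypothalamus replicate 1. It was 1567 (11.6%) without testosterone nucleus taenia replicate 1 and 1438 (10.6%) without testosterone nucleus taenia replicate 3. In control males limma called 0 genes (0.0%), and 415 reached an unadjusted p under 0.05 (3.07%), 195 higher and 220 lower. With library weights limma called 652 of 13537 genes in control males, 310 higher and 342 lower, and 3438 reached an unadjusted p under 0.05 (25.4%). The count of 0 there thus depends on equal weights. With the replicate block, which the pairing check called for in control males, limma called 0 genes, and 808 reached an unadjusted p under 0.05 (5.97%).

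The control count moved with each of its libraries. It was 699 (5.17%), 190 (1.41%) and 230 (1.7%) without control hypothalamus replicates 1 to 3. Without control nucleus taenia replicates 1 to 3 it was 748 (5.54%), 186 (1.37%) and 221 (1.63%). The adjusted threshold was passed by 2 genes without control nucleus taenia replicate 1. For a regional difference that itself differs between the treatments, limma called 0 genes (0.0%), and 695 reached an unadjusted p under 0.05 (5.13%). For the median gene the interval of that difference reached 1.13 to either side on the log2 scale, which is 2.19-fold. The count of 695 became 366 (2.7%) without testosterone hypothalamus replicate 1 and 1470 (10.9%) without testosterone nucleus taenia replicate 1, its lowest and highest values. Leaving out 6 other libraries also moved it by over 1.5 times. It was 448 (3.31%) without control hypothalamus replicate 2 and 1094 (8.1%), 377 (2.78%) and 425 (3.13%) without control nucleus taenia replicates 1 to 3. Without testosterone nucleus taenia replicates 2 and 3 it was 426 (3.17%) and 1323 (9.77%).

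Regional differences of the 2 treatments, which have no library in common, were not alike across genes. Over the 13537 genes the difference in testosterone males and that in control males had a Pearson r of −0.12, and 41.0% of genes had the same sign in both. Without testosterone nucleus taenia replicate 2 the values were 0.03 and 46.2%. Of the 483 genes at an unadjusted p under 0.05 in testosterone males, 133 had the same sign in control males, or 27.5%, and 66 of 186 such genes, or 35.5%, without that library. Of the 415 such genes of control males, 194 had the same sign in testosterone males, or 46.7%. Genes are not independent replicates, and these shares carry no test.

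Males were set beside females, whose 12 libraries come from the same 2 regions and treatments and take no part in the male comparison. The female testosterone hypothalamus replicate 3 stood apart, with a mean r of 0.756 with the other 11 female libraries, against 0.890 to 0.906 for the rest. In females limma called 0 of 13562 genes (0.0%), and 1583 reached an unadjusted p under 0.05 (11.7%), 1611 (11.9%) without that library. Males had an adjusted count of 0 with library weights and with no filter on low values. In females it was 2221 of 13562 with library weights, 3 with no filter and 2 without control hypothalamus replicate 2. The unadjusted count was 3186 (23.5%) without testosterone hypothalamus replicate 1 and 1013 (7.48%) without control hypothalamus replicate 1. It was 1029 (7.58%) without testosterone nucleus taenia replicate 2, 1038 (7.67%) without control nucleus taenia replicate 2 and 922 (6.8%) without testosterone nucleus taenia replicate 1. The difference between the sexes in the regional difference passed for 0 of 13612 genes (0.0%) in limma, and 823 reached an unadjusted p under 0.05 (6.05%). Leaving out 1 male library gave 1335 (9.81%), 545 (4%) and 435 (3.2%) genes for control hypothalamus replicates 1 to 3. It gave 530 (3.89%) for testosterone hypothalamus replicate 2, 512 (3.77%) for control nucleus taenia replicate 1 and 1639 (12%) for testosterone nucleus taenia replicate 3. Leaving out 1 female library gave 2072 (15.2%) for testosterone hypothalamus replicate 1, 531 (3.91%) for control hypothalamus replicate 1 and 538 (3.95%) for testosterone nucleus taenia replicate 1. All other libraries of either sex moved the count by less than 1.5 times. The median size of the regional difference was 0.15 in males and 0.30 in females on the log2 scale, and 0.22 in females without testosterone hypothalamus replicate 3.

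The direction of the male genes at an unadjusted p under 0.05, and of those without overlap, was then read in females. Of the 294 genes at an unadjusted p under 0.05 in males that were also tested in females, 193 had the same sign in both sexes, or 65.6%, while 46.1% of all 13283 genes tested in both had it. Without female testosterone hypothalamus replicate 3 the shares were 73.7% of 300 genes and 49.8% of 13537. These were taken over all genes tested in males, so the gene sets differ from those before. In the reverse view, 737 of the 1555 genes at an unadjusted p under 0.05 in females, or 47.4%, had the same sign in males. Of the 8 genes whose regions did not overlap in males, 7 had the same sign in females, and 2 had an unadjusted p under 0.05 there. As between the treatments, genes are not independent replicates, and these shares carry no test.

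**Figure D5:**
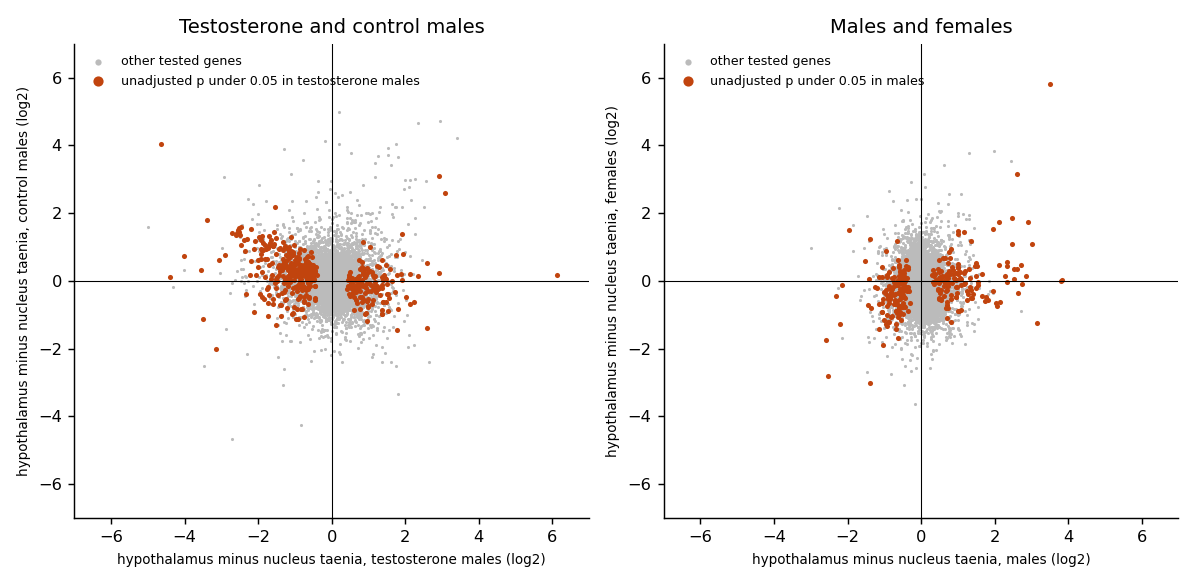
Regional difference of each tested gene (hypothalamus minus nucleus taenia, log2(FPKM + 1)) in testosterone males against control males (left) and in males against females (right). Orange points are genes at an unadjusted p under 0.05 in the group on the horizontal axis. On the left 27.5% of the 483 orange genes have the same sign on both axes, and on the right 65.6% of the 294 that were tested in both sexes. Genes are not independent replicates, and the shares carry no test.

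ENSTGUG00000003864 averaged 65.3 ± 28.8 FPKM in female hypothalamus and 60.2 ± 41.4 FPKM in female nucleus taenia (SD, n = 6 each), with a log2 difference of 0.13 (SE 0.58), and the difference between the sexes in the regional difference was 2.71 (SE 0.74, limma adjusted p = 0.691). ENSTGUG00000010289 was at 29.3 ± 14.6 FPKM in female hypothalamus and 41.9 ± 35.9 FPKM in female nucleus taenia. ENSTGUG00000015212 averaged 9.56 ± 5.52 FPKM in female hypothalamus and 18.3 ± 6.21 FPKM in female nucleus taenia, with a log2 difference of −1.02 (SE 0.39, limma adjusted p = 0.397), close to the male value of −0.92. ENSTGUG00000015318 ran from 1.58 to 20.3 FPKM with a median of 7.23 FPKM in female hypothalamus, and from 0 to 27.7 FPKM with a median of 12.6 FPKM in female nucleus taenia.

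The genes with the largest male differences were then read in females. For the 27 genes over 4-fold higher in male hypothalamus, the median level in female hypothalamus was 42.2, 48.4 and 6.27 FPKM in testosterone replicates 1 to 3 and 5.28, 111 and 21.0 FPKM in control replicates 1 to 3. In female nucleus taenia it was 48.6, 8.58 and 58.0 FPKM in testosterone replicates 1 to 3 and 76.8, 10.2 and 3.79 FPKM in control replicates 1 to 3. High and low libraries thus occurred in both female regions. The 6 male nucleus taenia libraries were all low, but the genes were chosen by their male difference. The values are therefore no contrast between the sexes. Whether each punch held the region its label names was not tested, since no regional marker could be identified, and the regional values rest on the labels. Of the 27 genes, 18 had the same sign in females, and 8 were also over 2-fold higher in female hypothalamus, with a median female difference of 0.34 on the log2 scale. Of the 10 genes over 4-fold lower in male hypothalamus 9 were tested in females, where 7 had the same sign and 4 were over 2-fold lower, with a median difference of −0.45. Over all genes tested in both sexes 46.1% had the same sign and the median female difference was −0.04. These counts carry no test.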

How the data were processed

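RNA was sequenced from 24 samples, of which the 12 male ones and, for comparison, the 12 female ones were used. The authors deposited FPKM values per gene and library, made with cutadapt 1.9.1, TopHat2 2.1.1 and Cufflinks 2.2.1, per the submitters' processing notes. Build and annotation: not given in the sources used here. FPKM divides out depth and length, so the read number behind a value is unknown, and a few abundant genes can lower all others. The table held 0 columns without a sample and 0 identical libraries. Low values gave rough relative depths (31.8% of 66 library pairs within 3% of the fit).

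In R 4.3.3, limma 3.58.1 was fitted to log2(FPKM + 1) with 1 mean per group, variance trend, and a minimum mean of 1 FPKM; p was adjusted over all tested genes. The labels do not say that libraries are separate birds, so each p reflects only how much these samples vary, which may be technical. The 2 genes of smallest p in each direction were named. The comparison, lists and rules were chosen with earlier results of these data known; lists by gene symbol could not be applied. Tests were tried on simulated data. The closing section gives the alternatives. Figures used matplotlib 3.10.9.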

Additional observations from a re-analysis of the deposited data

Results flagged for a closer look

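Within the 6 male libraries of each region, 5 library measures and 4 genes were checked for a library far from the others, in 18 checks, where chance gives about 1 in 20, or 0.9. The 4 genes were chosen by p in these libraries, and the r values of libraries depend on each other. The 0.9 is therefore only a rough guide. In 1 of the checks a library lay apart: the r of testosterone nucleus taenia replicate 2 with the other male libraries averaged 0.848, below the 0.892 of the next library of its region. Of the male libraries it also had the highest total FPKM, 1158300, and the largest share of it in the 10 most abundant genes, 12.1%. The part of this library in the results was not tested beyond the values without it given above.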

How the results depend on the processing

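The male comparison kept 0 genes past the adjusted threshold in limma with pseudocounts of 0.1 and 5, no filter, a minimum of 5 FPKM, median-ratio scaling, quantile normalization, robust moderation, library weights, all 24 libraries in the fit, treatment left out, and without any 1 library. It gave 1 gene with the replicate block, and 2 without the control pair numbered 1, also when testosterone nucleus taenia replicate 2 was left out too (both chosen after seeing the data). In testosterone males the count was 1 with the replicate block and 1 with its 6 libraries alone. The difference between the treatments in the regional difference gave 1 with the replicate block, again ENSTGUG00000003392. In control males the count was 652 of 13537 with library weights and 0 to 2 without 1 library. In females it was 3 with no filter, 2221 of 13562 with library weights and 0 to 2 without 1 library, the 2 genes without control hypothalamus replicate 2. Library weights also changed the number of genes at an unadjusted p under 0.05. It was 771 (5.7%) against 300 in the male comparison, 188 (1.39%) against 483 in testosterone males and 3438 (25.4%) against 415 in control males. In females it was 4658 (34.3%) against 1583. For the difference in the regional difference it was 1171 (8.65%) against 695 between the treatments and 1943 (14.3%) against 823 between the sexes. With the replicate block this number was 1529 (11.3%) for the difference in the regional difference between the treatments and 1456 (10.7%) for that between the sexes. With the 6 libraries of a treatment alone it was 297 (2.21%) in testosterone males and 908 (6.75%) in control males. The cause was not tested. The adjusted count of the difference between the sexes in the regional difference kept its side of the threshold in every alternative run. So did the correlation by region and the 5 library measures. The 4 named genes kept their sign and missed the threshold in 26 alternatives each; for ENSTGUG00000003864 the adjusted p in limma ran from 0.0607 to 1. The median over all genes moved by less than 0.1 on the log2 scale with either scaling.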

Other observations

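Of all 17475 genes, 204 were listed at 0 in all 6 male nucleus taenia libraries and above 0 in at least 1 male hypothalamus library, and 282 were listed at 0 in all 6 male hypothalamus libraries and above 0 in at least 1 male nucleus taenia library. Of the 204, 49 reached 1 FPKM in some hypothalamus library and 7 were above 0 in 4 of the 6, and of the 282, 65 reached 1 FPKM in some nucleus taenia library and 8 were above 0 in 4 of the 6. None of either set was above 0 in 5 or 6 libraries of the other region.

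The most abundant transcripts were largely shared. Of the 100 genes of highest mean FPKM in male hypothalamus, 87 were also among the 100 highest in male nucleus taenia, and the single most abundant gene was the same. Among the 113 genes in either list the median size of the regional difference was 0.13 on the log2 scale, against 0.15 over all tested genes, and 1 gene was over 2-fold apart.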
